A study of Mus musculus with 17 samples.

Results

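Binding of the transcription factor WT1 was followed across its own gene, Wt1, in mouse glomeruli and podocytes with and without injury. All peaks of the 5 deposited lists whose summit lay between 104850000 and 105100000 on chromosome 2 (mm9) were taken, a window of 250 kb that holds Wt1, at about 104.97 to 105.01 Mb, with its flanks. Of 107761 peaks in all lists, 65 lay there, and of 41770 merged regions, 29 did. A merged region is a union of overlapping peaks from any of the lists. The window held 15 of 23402 peaks in PBS podocytes, 23 of 31949 at day 9, 5 of 6694 at day 14, 5 of 16634 in ADR glomeruli and 17 of 29082 in PBS glomeruli.

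WT1 is a zinc-finger protein that directs the formation of the kidney and later keeps podocytes, the epithelial cells of the glomerular filter, in their differentiated state. It binds DNA at promoters and at distant elements, and WT1 has been described as acting on the promoter of its own gene. Wt1 is read toward higher coordinates, and an antisense RNA gene, Wt1os, adjoins its start. In the RefSeq gene order of GRCm38, the protein-coding genes before Wt1 are Eif3m, Ccdc73 and Prrg4 in order of distance, and those after it are Them7, Rcn1 and Pax6. No annotation of mm9 was used, so the position of a peak is given against the approximate gene limits above and not against exons, introns or neighbouring genes.

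The series measured WT1 by ChIP-seq, chromatin immunoprecipitation followed by sequencing, with the antibody sc-192 in wild-type mice aged 7 to 8 weeks. Podocytes purified from the mTmG-Nphs2cre strain, in which Cre recombinase under the podocin promoter marks podocytes with a fluorescent reporter, gave 3 libraries after PBS vehicle, 2 at day 9 after adriamycin (ADR) and 2 at day 14. The labels do not say how they were purified, and peak lists without an annotation of mm9 could not be checked against podocyte markers. Isolated glomeruli of BALB/cJ mice, taken from 2 kidneys per immunoprecipitation, gave 4 libraries after ADR and 4 after PBS, and the labels give no day for these or for PBS podocytes. Adriamycin is doxorubicin, a drug that injures podocytes, and the 2 remaining samples were glomerular inputs. Glomeruli also hold endothelial and mesangial cells, and fewer podocytes and less WT1 on the chromatin of each podocyte cannot be told apart in them. Each group is represented by 1 peak list that stands for 2 to 4 libraries, so no value below has a replicate error and no difference between groups was tested. Fold enrichment, the caller's ratio of summit signal to background, is the authors' value. It is used to order peaks within a list. Where values of several lists stand side by side, no difference in fold enrichment between lists is read from them. A cutoff of 10-fold enrichment, used below, need not be equally strict in every list.

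The Wt1 locus carried dense WT1 binding, most of it upstream of the gene. Of the 29 regions, 22 lay upstream, 1 is called the gene start as the last region before the approximate start of 104.97 Mb, 5 lay within the gene and 1 lay beyond it. The region at the gene start (chromosome 2, 104966363 to 104966924) served as the origin, and the others are called by the distance of their strongest summit from its median summit. The upstream regions ran from 104856925 to 104953456, which is 109.5 to 13.4 kb before the gene start. Within the gene, regions stood 4.0, 6.1, 10.9, 12.7 and 13.5 kb after the start. From 104980306, about 84.1 kb passed without a peak in any list up to a region 98.0 kb after the start.

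**Figure D1:**
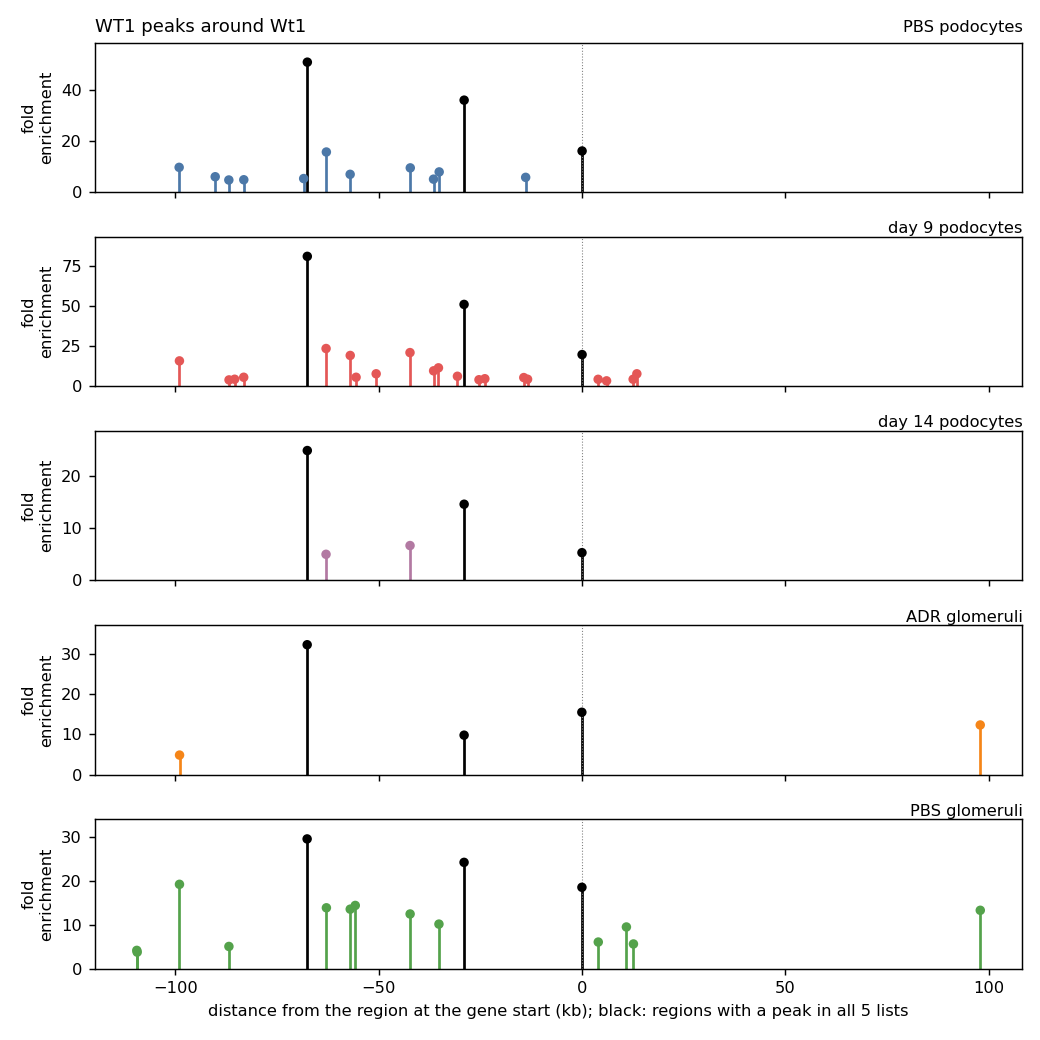
Fold enrichment of the strongest peak of each region (vertical axis, its scale differing between panels) against distance from the region at the gene start in kb (horizontal axis) in the 5 lists. Black marks the 3 regions with a peak in all lists, at 67.6 and 29.0 kb before the start and at the start itself, and all other peaks are in the colour of their list.

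In number of peaks, the window stood above most windows of its size. Among 10553 windows of 250 kb tiled over the genome, 98.7% had fewer peaks than the Wt1 window in PBS podocytes, 99.3% did in day 9 and 97.6% in day 14 podocytes. The shares were 88.6% in ADR glomeruli and 98.1% in PBS glomeruli. At a −log10 q of at least 10 the 5 shares lay between 95.3% and 98.1%. The median tiled window held 1 peak in PBS podocytes, 1 at day 9, 0 at day 14, 0 in ADR glomeruli and 1 in PBS glomeruli. By the sum of absolute differences over the 5 counts, the most similar tiled windows were 22250001 to 22500000 on chromosome 10 (distance 4), 55500001 to 55750000 on chromosome 1 (distance 5) and 39000001 to 39250000 on chromosome 10 (distance 5). The first of these held 15 peaks in PBS podocytes, 25 at day 9, 6 at day 14, 5 in ADR glomeruli and 18 in PBS glomeruli.

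The strongest site was the same in every list and lay far upstream. It is the region 67.6 kb before the gene start, at 104898643 to 104899482. Its fold enrichment was 50.7 in PBS podocytes, 81.0 at day 9, 24.9 at day 14, 32.3 in ADR glomeruli and 29.6 in PBS glomeruli. By fold enrichment it ranked 131st, 80th, 98th, 77th and 192nd within its list in the same order. It thus stood above the 98th percentile in each. By caller p-value it stood at the 97.3rd percentile at day 14 and above the 98th in the other lists. The caller's −log10 q was 226 in PBS podocytes, 399 at day 9, 83.3 at day 14, 83.9 in ADR glomeruli and 82.8 in PBS glomeruli. The summits of the 5 lists fell within 43 bp of each other.

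A region 29.0 kb before the start, at 104937078 to 104938208, was also found in every list. Its fold enrichment was 35.9 in PBS podocytes, 51.0 at day 9, 14.6 at day 14, 9.80 in ADR glomeruli and 24.3 in PBS glomeruli. It came next after the strongest site of the window in all lists but ADR glomeruli, where it ranked 4 of 5. Set against the strongest site of the same list, it reached 70.7% in PBS podocytes, 63.0% at day 9, 58.6% at day 14, 30.4% in ADR glomeruli and 82.0% in PBS glomeruli. Its percentile within the list was 71.6 in ADR glomeruli and 92.0 to 98.6 in the other lists, and its summits fell within 27 bp.

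The third region with a peak in every list was the one at the gene start. Its fold enrichment was 16.0 in PBS podocytes, 19.7 at day 9, 5.33 at day 14, 15.5 in ADR glomeruli and 18.6 in PBS glomeruli. It was the weakest of the 3 common sites in each podocyte list and in PBS glomeruli, while in ADR glomeruli it stood above the region 29.0 kb upstream. Relative to the strongest site of its list it reached 31.6% in PBS podocytes, 24.3% at day 9, 21.4% at day 14, 48.0% in ADR glomeruli and 62.7% in PBS glomeruli. Its summits fell within 58 bp.

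**Figure D2:**
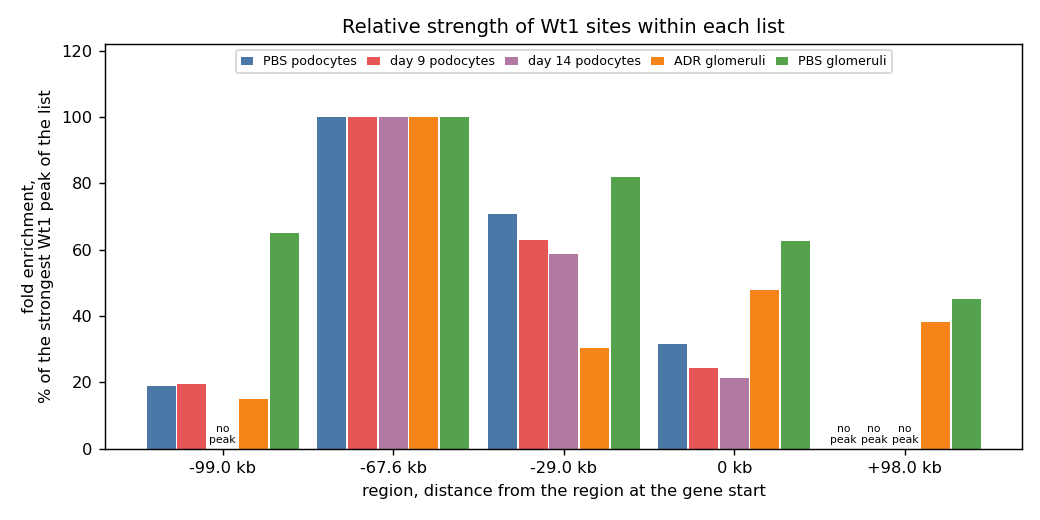
Fold enrichment of 5 regions as a percentage of the strongest Wt1 peak of the same list (vertical axis), by distance from the gene start (horizontal axis), with a bar for each list. The region 29.0 kb upstream is at 30.4% in ADR glomeruli and at 58.6% to 82.0% in the other lists, and "no peak" marks a list without a peak in the region.

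In each podocyte list, the region at the gene start stood at a higher percentile by caller p-value than by fold enrichment. It stood at the 93.8th percentile by p-value against the 88.7th by fold enrichment in PBS podocytes. At day 9 it stood at the 94.4th against the 88.5th and at day 14 at the 54.4th against the 33.3rd. In PBS glomeruli it stood at the 93.1st against the 92.0th and in ADR glomeruli at the 87.9th against the 89.8th. The local background that reconciles a peak's fold enrichment with its p-value, under the form described with the processing, was 7.98 to 8.08 reads at the gene start in PBS podocytes, 7.96 to 8.04 at day 9 and 6.75 to 7.15 at day 14. At the region 67.6 kb upstream it was 2.13 to 2.16, 2.01 to 2.03 and 2.04 to 2.10 in the same order. In ADR glomeruli it was 0.702 to 0.868 at the gene start and 0.965 to 1.02 at the upstream region, and in PBS glomeruli it was 1.93 to 2.02 and 1.25 to 1.31. A background could be solved for every podocyte peak, for 12603 of 16634 peaks in ADR glomeruli and for 28067 of 29082 in PBS glomeruli. Percentiles of background are among those peaks of a list. At the gene start the background was at the 69.6th percentile in PBS podocytes, the 77.7th at day 9 and the 73.9th at day 14. There it was at the 8.01st in ADR glomeruli and the 57.7th in PBS glomeruli. That of the region 67.6 kb upstream was at the 11.2nd, 16.6th, 19.5th, 36.2th and 23.0th percentile in the same order. The region 99.0 kb upstream had a background of 5.32 to 5.50 in PBS podocytes, at the 56.6th percentile, and of 4.25 to 4.35 at day 9, at the 58.7th. Within the gene at day 9, the regions 4.0 and 6.1 kb after the start had backgrounds of 8.73 to 9.26 and 5.66 to 6.46. Which control entered the calling is not given in the sources used here, and the part of this background in the fold enrichment was not tested.

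Whether the injured glomerulus kept WT1 at Wt1 was read from ADR against PBS glomeruli. ADR glomeruli had 5 Wt1 peaks and PBS glomeruli 17, a ratio of 0.294, against a ratio of 0.572 between the whole lists. All 5 ADR peaks overlapped a PBS peak, as did 82.6% of all ADR peaks. Of the 17 PBS peaks, 5 (29.4%, 95% Wilson interval 13.3 to 53.1) overlapped an ADR peak, against 46.5% of all PBS peaks. The interval holds the share of the whole list. It covers the counting error of peaks only and treats neighbouring peaks of 1 list as independent. It is therefore no test of the locus against its list, and the same holds for the intervals below. With all 5 lists trimmed by caller p-value to the 6694 peaks of the shortest, the window held 4 peaks in ADR glomeruli and 6 in PBS glomeruli.

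The PBS glomerular peaks without an ADR peak were mostly the weaker ones. The 12 such peaks had 3.80 to 14.5-fold enrichment, while the 5 with an ADR peak had 13.4 to 29.6-fold. Both ranges covered 13.4 to 14.5-fold, where regions 55.8, 57.0 and 62.9 kb upstream had no ADR peak and the region 98.0 kb after the start had one. Of the 10 PBS peaks of at least 10-fold enrichment, 5 had an ADR peak, against 66.1% of all PBS peaks at that strength.

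The order of the sites in ADR glomeruli was not that of PBS glomeruli. In ADR glomeruli the order by fold enrichment was the region 67.6 kb upstream, the gene start, the region 98.0 kb after the start, the region 29.0 kb upstream and the region 99.0 kb upstream. In PBS glomeruli the region 67.6 kb upstream was followed by the regions 29.0 and 99.0 kb upstream and the gene start, and the region 98.0 kb after the start ranked 8 of 17. The region 99.0 kb upstream (104867011 to 104868082) had 4.85-fold enrichment in ADR glomeruli, at the 11.8th percentile of that list, and 19.3-fold in PBS glomeruli, at the 92.9th. Its ADR peak was 199 bp wide and its PBS peak 878 bp wide. By caller p-value the ADR order was the same, and in PBS glomeruli the gene start moved ahead of the region 99.0 kb upstream. These orders have no replicate check. In ADR glomeruli the local background was 1.498 to 1.719 at the region 29.0 kb upstream and 0.702 to 0.868 at the gene start. In PBS glomeruli it was 1.128 to 1.206 and 1.93 to 2.02 in the same order. That of the region 29.0 kb upstream was at the 76.36th percentile in ADR glomeruli and the 12.15th in PBS glomeruli. The part of these backgrounds in the changed order, and in the 30.4% of the region 29.0 kb upstream, was not tested.

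For the purified cell early after injury, day 9 was set against PBS podocytes. Day 9 podocytes had 23 Wt1 peaks and PBS podocytes 15, a ratio of 1.53 against 1.37 between the whole lists. Of the 23 day 9 peaks, 12 (52.2%, interval 33.0 to 70.8) overlapped a PBS peak, against 64.0% of all day 9 peaks. Of the 15 PBS peaks, 13 (86.7%, interval 62.1 to 96.3) overlapped a day 9 peak, against 87.0% of all PBS peaks. Both intervals hold the share of the whole list. With equally long lists the window held 7 peaks at day 9 and 5 in PBS podocytes.

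The peaks that day 9 had beyond PBS podocytes were weak. The 11 without a PBS podocyte peak had 3.35 to 7.75-fold enrichment with a median of 4.35, and the 12 with one had a median of 17.5. All 8 day 9 peaks of at least 10-fold enrichment had a PBS podocyte peak, against 90.1% of all such day 9 peaks, and all 4 such PBS podocyte peaks had a day 9 peak, against 99.6%. Of the 11, 4 lay within the gene, at 4.0, 6.1, 12.7 and 13.5 kb after the start, where PBS podocytes had no peak. PBS glomeruli had peaks at 4.0 and 12.7 kb. Regions found at day 9 alone numbered 8 of 29 (27.6%), against 16.1% of all merged regions, and 2 of the 8 passed a −log10 q of 10. These were at 50.6 kb before and 13.5 kb after the start, each with 7.75-fold enrichment.

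The 2 PBS podocyte peaks without a day 9 peak had 5.26 and 5.97-fold enrichment and lay 68.4 and 90.2 kb upstream. Neither had a match in any other list. By fold enrichment, the order of the strong podocyte sites was close but not the same. After the regions 67.6 and 29.0 kb upstream, PBS podocytes had the gene start, the region 62.9 kb upstream, the region 99.0 kb upstream and the region 42.3 kb upstream. Day 9 podocytes had the regions 62.9 and 42.3 kb upstream, then the gene start, then the regions 57.0 and 99.0 kb upstream. By caller p-value the gene start came directly after the regions 67.6 and 29.0 kb upstream in both lists. At day 9 the region 99.0 kb upstream then also stood ahead of that 57.0 kb upstream. Neither order has a replicate check. The region 57.0 kb upstream (104909225 to 104909942) had 19.2-fold enrichment at day 9, at the 88.0th percentile of that list, and 6.91-fold in PBS podocytes, at the 56.4th.

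**Figure D3:**
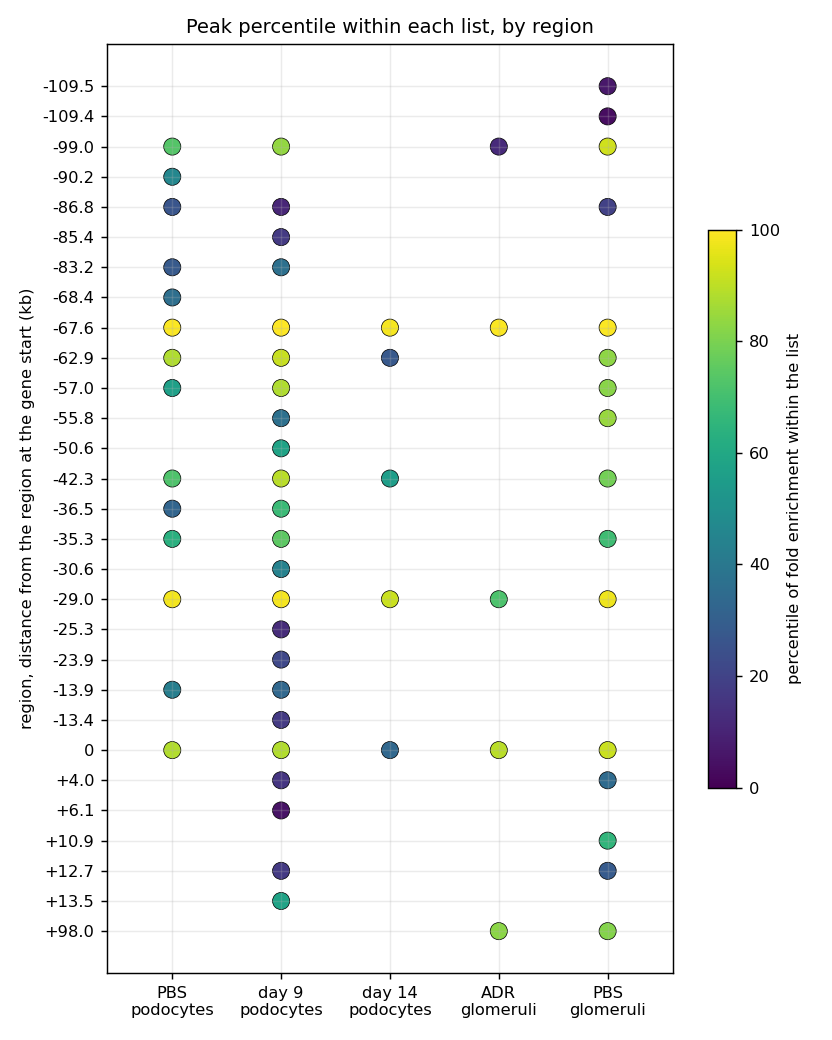
Each of the 29 regions (rows, by distance from the region at the gene start in kb) in each list (columns), with the colour giving the percentile of fold enrichment of the region's strongest peak within that list and an empty cell meaning no peak. The rows at 67.6 and 29.0 kb upstream and at 0 are filled in all 5 columns, and the last row, 98.0 kb after the start, is filled in the 2 glomerular columns only.

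The later state after injury was read at day 14, with the PBS podocyte list that also served day 9. Day 14 podocytes had 5 Wt1 peaks, PBS podocytes 15 and day 9 podocytes 23, giving ratios of 0.333 to PBS and 0.217 to day 9, against 0.286 and 0.210 between the whole lists. All 5 day 14 peaks overlapped a PBS podocyte peak and a day 9 peak, as did 96.1% and 99.7% of all day 14 peaks. They lay 67.6, 62.9, 42.3 and 29.0 kb upstream and at the gene start. In the other direction, 5 of the 15 PBS podocyte peaks (33.3%, interval 15.2 to 58.3) had a day 14 peak, against 27.0% of all PBS peaks. Of the 23 day 9 peaks, 5 (21.7%, interval 9.66 to 41.9) had one, against 20.5% of all day 9 peaks. The day 14 list was the shortest, so trimming could not change its 5 window peaks. At that length the window held 5 peaks in PBS podocytes and 7 at day 9.

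The 5 sites found at day 14 were the 5 strongest of the window at day 9, by fold enrichment of 19.7 to 81.0 and also by caller p-value. The next day 9 site by fold enrichment, 57.0 kb upstream with 19.2-fold, had no day 14 peak. In PBS podocytes the 4 strongest sites had a day 14 peak. Of the next, that 99.0 kb upstream with 9.64-fold enrichment had none and that 42.3 kb upstream with 9.43-fold had one. Of PBS podocyte peaks of at least 10-fold enrichment, 4 of 4 had a day 14 peak, against 76.9% in the whole list, and of such day 9 peaks 5 of 8 did, against 59.4%. At day 14 itself the sites 42.3 and 62.9 kb upstream had 6.69 and 5.01-fold enrichment, on either side of the list's median of 6.27.

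Without injury, the purified cell was compared with the whole glomerulus, which differed in strain and preparation as well. PBS podocytes had 15 Wt1 peaks and PBS glomeruli 17. Of the podocyte peaks, 10 (66.7%, interval 41.7 to 84.8) overlapped a glomerular peak, against 80.7% of all podocyte peaks. Of the glomerular peaks, 10 (58.8%, interval 36.0 to 78.4) overlapped a podocyte peak, against 66.4% of all glomerular peaks. The 5 podocyte peaks without a glomerular peak had at most 5.97-fold enrichment. All 4 podocyte peaks of at least 10-fold had one, against 97.3% of such podocyte peaks.

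**Figure D4:**
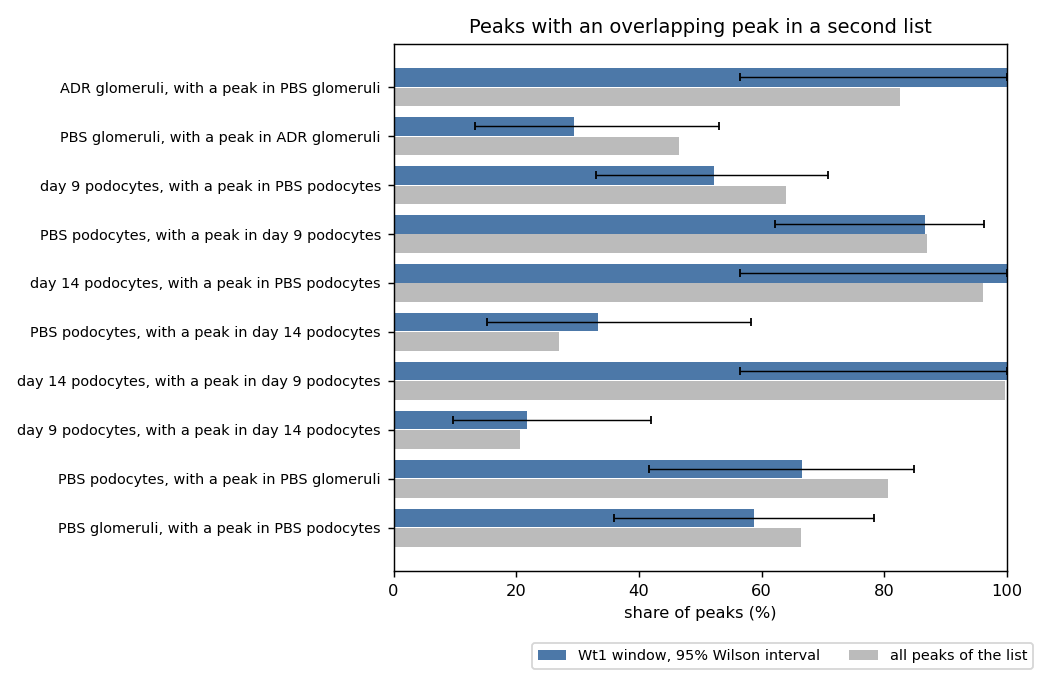
Share of peaks with an overlapping peak in a second list (horizontal axis, %) for the Wt1 window (blue, with 95% Wilson intervals) and for all peaks of the list (grey). Every blue interval contains the grey share beside it.

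Of the 10 glomerular peaks of at least 10-fold enrichment, 8 had a PBS podocyte peak, against 93.0% in the whole list, and 2 did not. The first, 55.8 kb upstream (104910722 to 104911291), had 14.5-fold enrichment in PBS glomeruli and a match at day 9 of 5.59-fold, whose summit lay 206 bp away. The second lay 98.0 kb after the start.

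That downstream region, at 105064394 to 105064764, had a peak in both glomerular lists and in no podocyte list. It had 12.3-fold enrichment in ADR glomeruli, at the 82.7th percentile of that list, and 13.4-fold in PBS glomeruli, at the 81.3rd. The summits of the 2 lists lay 9 bp apart. Such regions, with peaks in both glomerular lists alone, made up 1 of 29 in the window and 2.99% of all merged regions. Cells other than podocytes, the strain and the preparation differ between the glomerular and podocyte lists and cannot be told apart.

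Regions shared by fewer lists filled the rest of the window. A peak in all 5 lists was found in 3 of 29 regions (10.3%), against 11.2% of all merged regions. Regions with peaks in 4 lists numbered 3, in 3 lists 3, in 2 lists 7 and in 1 list 13 (44.8%), against 34.5% of all merged regions in 1 list. No share over all merged regions is given for 2, 3 or 4 lists. Of the 3 in 4 lists, those 62.9 and 42.3 kb upstream were without a peak in ADR glomeruli, and that 99.0 kb upstream was without one at day 14. Regions missing from ADR glomeruli alone made up 6.90% of the window, against 3.44% of all merged regions. Those missing from day 14 alone made up 3.45%, against 13.7%. For each list, the strongest missing region was taken as the one whose peak reached the highest percentile of fold enrichment within another list. For PBS podocytes it lay 55.8 kb upstream, at the 84.4th percentile in PBS glomeruli. For day 9 it lay 98.0 kb after the start, at the 82.7th percentile in ADR glomeruli. For day 14 it lay 99.0 kb upstream, at the 92.9th percentile in PBS glomeruli. For ADR glomeruli it lay 62.9 kb upstream and for PBS glomeruli 36.5 kb upstream, at the 91.6th and 67.9th percentile at day 9. No region was found in ADR glomeruli alone, against 3.37% of all merged regions, or at day 14 alone, against 0.0287%.

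The peaks of the window were not uniformly strong for their lists. The median fold enrichment in the window was 6.91 in PBS podocytes, 6.20 at day 9, 6.69 at day 14, 12.3 in ADR glomeruli and 12.5 in PBS glomeruli. Over the whole lists the medians were 6.30, 6.82, 6.27, 7.26 and 7.46 in the same order. A −log10 q of at least 10 was reached by 8 of 15 window peaks in PBS podocytes, against 69.5% of the whole list, by 12 of 23 at day 9 against 69.7% and by 4 of 5 at day 14 against 65.5%. It was reached by 4 of 5 in ADR glomeruli against 42.6% and by 11 of 17 in PBS glomeruli against 55.9%. Single peaks were 195 to 1228 bp wide.

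**Figure D5:**
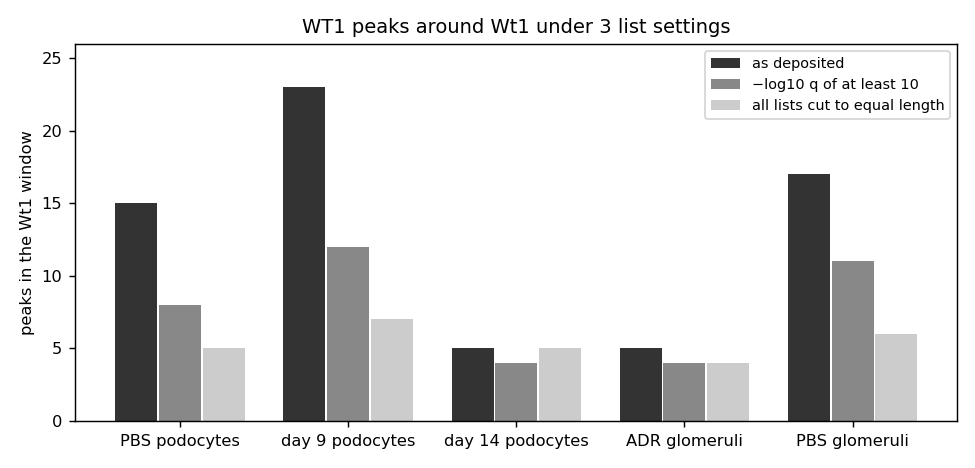
Number of WT1 peaks in the Wt1 window (vertical axis) in each list as deposited, at a −log10 q of at least 10 and with all lists cut to the length of the shortest by caller p-value. The 5 to 23 peaks of the deposited lists become 4 to 7 at equal list length.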

How the data were processed

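Each of the 15 WT1 libraries belongs to a group for which the authors deposited a single narrowPeak list. The submitters' processing notes name Bowtie 0.12.7, MACS2 and the build mm9. Not given in the sources used here are the control, the cutoff and the way libraries were combined. The authors' fold enrichment is a ratio of summit signal to background made by the caller before deposit. Both −log10 p and −log10 q were likewise written by the authors' caller before deposit. The integer score the authors deposited entered no result. Read depth is unknown.

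Peaks were assigned to the window by summit, start plus offset. Positions are 1-based in mm9. Sharing needed an overlap of at least 1 bp. Percentiles and ranks are within a list. The local background was solved from fold enrichment, taken as summit reads plus 1 over background plus 1, and p, taken as a Poisson tail. The ranges cover the tail with and without the summit value. This form is inferred and was added after the data were seen, as was the 10-fold subset.

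Named regions were those in all lists, the strongest of each list and the strongest, by percentile within another list, missing from each. Members and lists were chosen with earlier results of these data known. The RefSeq gene table (GRCm38) gave names and order only, and no sequence is printed. The code was tested on simulated data. Tools were Python 3.11.15 with pandas 2.3.3, scipy 1.17.1, numpy 2.4.6 and, for plots, matplotlib 3.10.9.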

Additional observations from a re-analysis of the deposited data

Results flagged for a closer look

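In glomeruli the ratio of Wt1 peaks, ADR over PBS, was 0.294. In podocytes the ratio of day 9 over PBS was 1.53. These lie on opposite sides of 1. At day 14 over PBS podocytes the ratio was 0.333, on the same side as in glomeruli. The labels give no day for the glomeruli, and strain and preparation differ as well, so that no matching time can be named. The difference was not tested, since each group has 1 list. The whole lists had ratios of 0.572 in glomeruli, 1.37 for day 9 over PBS podocytes and 0.286 for day 14 over PBS podocytes. At equal list length the window held 4 peaks in ADR and 6 in PBS glomeruli. In podocytes it then held 7 at day 9, 5 at day 14 and 5 after PBS.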

How the results depend on the processing

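No paired analysis was possible because the libraries of a group are merged in 1 list, which also prevents leaving out a replicate. The 3 regions with a peak in all lists stayed 3 under each of the 3 alternatives tried for them. The 29 merged regions became 15 at a −log10 q of at least 10 and 9 with every list trimmed to the shortest. At that q the window held 8 peaks in PBS podocytes, 12 at day 9 and 11 in PBS glomeruli, and with trimmed lists 5, 7 and 6. At that q in both lists, 100% of PBS podocyte peaks had a day 9 peak and 100% a PBS glomerular peak. With both lists trimmed to the shorter, 75% of day 9 peaks had a PBS podocyte peak, 80% of PBS podocyte peaks a day 14 peak and 71.4% of day 9 peaks a day 14 peak. Among peaks of at least 10-fold enrichment, an added setting, a match was found for 100% of day 9 peaks in PBS podocytes, for 100% of PBS podocyte peaks in each of day 9, day 14 and PBS glomeruli, for 62.5% of day 9 peaks at day 14 and for 80% of PBS glomerular peaks in PBS podocytes. Each of these shares rests on 4 to 12 peaks. For the q and trimmed settings no share over the whole lists is given, so these values do not set the locus against its lists. The other 57 counts and shares moved by less than 1.5 times or stayed within the Wilson interval. For the percentiles of the strongest site and of peak density, 13 alternatives left the Wilson interval and 7 stayed within it. Depth of the libraries is unknown, so that a missing peak is one not called and not a site shown to be free of WT1.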
